A study of Mus musculus with 10 samples.

Results

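The genes described here are 9 genes of the oligodendrocyte, the cell that wraps axons of the brain in myelin. They were chosen by name, as the rows of the array table that the platform annotation assigns to Mbp, Mog, Mag, Mobp, Cnp, Pllp, Gsn, Olig1 or Olig2 by a rule that reads the gene name only, though the names themselves were picked with earlier results of these data known. Of the 19938 genes that the annotation named, these are 9, and each had 1 transcript cluster, the set of probes that summarises a gene on this array. They were grouped as 6 myelin protein genes (Mbp, Mog, Mag, Mobp, Cnp and Pllp), the actin regulator Gsn, and the transcription factors Olig1 and Olig2.

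RNA came from the whole hippocampus, both sides together, of 10 male mice aged 16 weeks, on a C57BL/6N background per the labels, whereas the study's methods give C57BL/6J for the Dyrk1a line. The groups were 5 Tg(Dyrk1a) mice, in which a bacterial artificial chromosome supplies 1 extra copy of Dyrk1a, a protein kinase gene, and 5 wild-type littermates without it, with no treatment in either group. Each mouse gave 1 Affymetrix GeneChip Mouse Gene 1.0 ST array, and the replicates of a group are biological ones per the labels. The comparison asks what the extra copy of Dyrk1a changes in the hippocampus, here in its myelin-forming cells.

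Oligodendrocytes arise from dividing precursor cells. OLIG2 and OLIG1, basic helix-loop-helix transcription factors, set the lineage and remain present in it, whereas the myelin proteins are made in bulk only when a cell differentiates and wraps axons. Myelin is held together by adhesive proteins at its compact layers and at its contact with the axon, and transcripts for these proteins are among the most abundant of the white matter tracts that border the hippocampus.

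Values are on the log2 scale of the robust multi-array average (RMA), on which a difference of 1 is a doubling, and they carry no scale that is shared between genes. The 10 arrays had medians between 6.57 and 6.66 and correlated at r = 0.996 to 0.999 with each other. Markers of hippocampal neurons were present in both groups, among them Wfs1 of CA1 neurons (10.61 in Tg(Dyrk1a) and 10.56 in wild type) and Prox1 of dentate granule cells (10.03 and 9.91). Of 10 such markers, 8 had the higher and 2 the lower mean in Tg(Dyrk1a), with a median log2 fold change of 0.07. On the higher side 2 had an unadjusted limma p under 0.05, where 2.99% of all transcript clusters did. After adjustment 0 of the 10 had a p under 0.05. Dyrk1a itself (transcript cluster 10437136) was 1.38-fold higher in Tg(Dyrk1a), at 11.65 ± 0.02 against 11.18 ± 0.06 (SD, n = 5 each), with a limma adjusted p of 0.000138. On 3 arrays the mean of 11 choroid plexus markers lay over 0.5 above its mean of all arrays, namely Tg(Dyrk1a) replicates 2 and 4 (1.27 and 0.95) and wild-type replicate 5 (1.19). Without those 3 arrays, the differences that moved by over 1.5 times or turned sign are given beside the result.

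None of the 9 genes passed the limma threshold, an adjusted p under 0.05 over 23410 annotated transcript clusters, of which 2, or 0.00854%, passed. Before adjustment, 2 of the 9 genes, Pllp and Gsn, had a limma p under 0.05. Both were higher in Tg(Dyrk1a). Among all transcript clusters 4.93% had such a p, with 2.99% higher and 1.94% lower in Tg(Dyrk1a). By direction alone, 7 of the 9 genes had the higher mean in Tg(Dyrk1a), as did 50.9% of all transcript clusters, and the median log2 fold change of the 9 was 0.03 against 0.00104 over all transcript clusters. With 9 genes, 1 or 2 calls change these shares a great deal, so they are given as a description. In whole tissue, a change in the number of oligodendrocytes and a change in RNA per oligodendrocyte cannot be told apart.

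**Figure D1:**
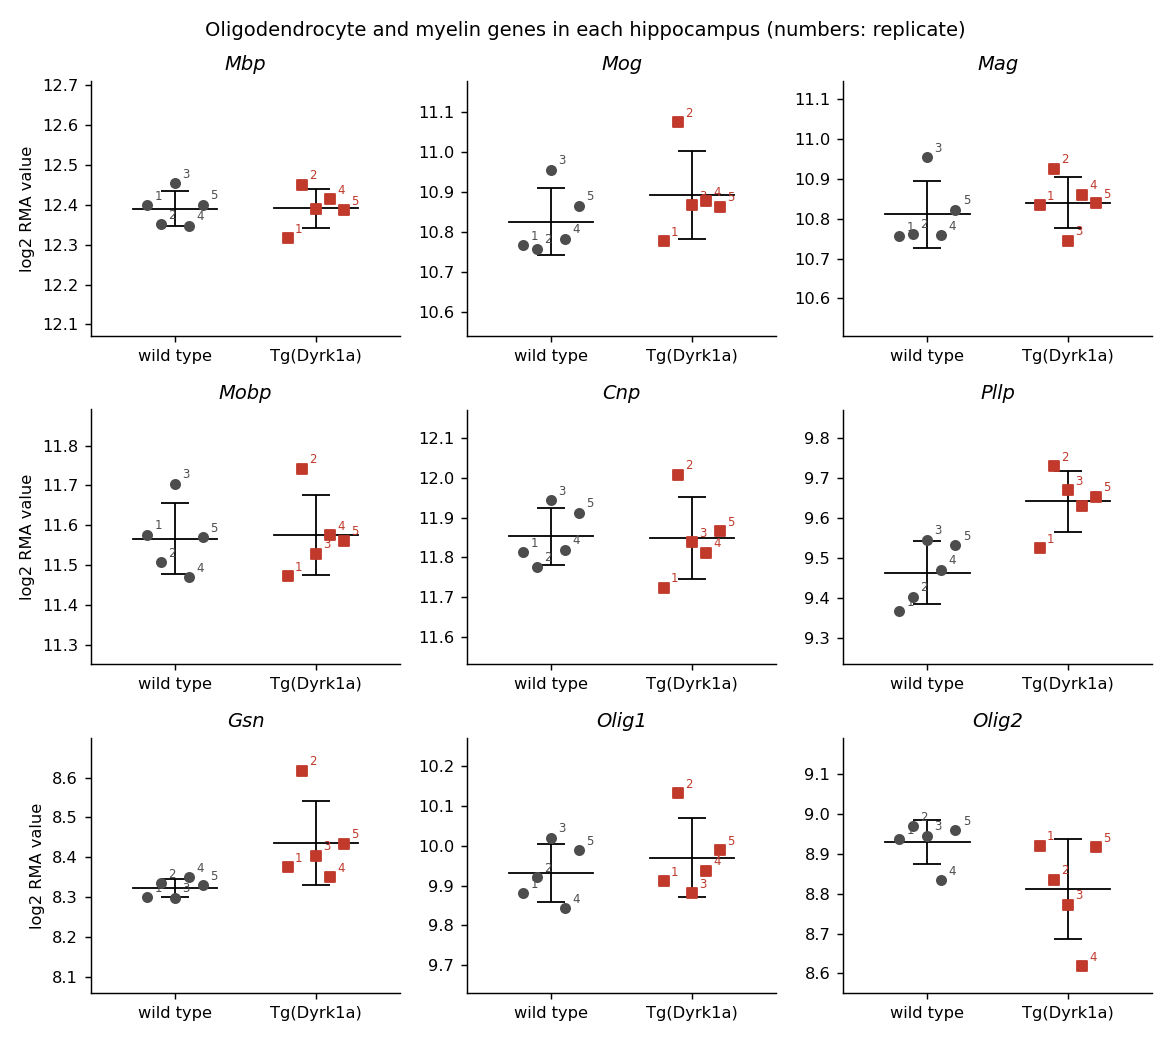
Log2 RMA values (vertical axes, with the same span in each panel) of the 9 genes in the hippocampus of each wild-type (circles) and Tg(Dyrk1a) (squares) mouse, with the replicate number beside each point and black lines at the group mean with the SD over 5 mice. The groups overlap in every panel but that of Gsn, where they touch, and wild-type replicate 3 and Tg(Dyrk1a) replicate 2 are the highest of their group in all 6 myelin protein genes.

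Of the myelin protein genes, 5 of 6 were within 0.07 of each other in mean between genotypes. Mbp (10457022) encodes myelin basic protein, which binds the inner faces of the membrane together in compact myelin. In Tg(Dyrk1a) mice 1 to 5 it stood at 12.32, 12.45, 12.39, 12.41 and 12.39, and in wild-type mice 1 to 5 at 12.40, 12.35, 12.45, 12.35 and 12.40. The groups covered the same range, and the log2 fold change was 0.00035 ± 0.03 (SE, limma adjusted p = 1.00), with a 95% interval of -0.07 to 0.08. Of the 9 genes it had the narrowest interval.

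Mog (10450845, chr17:37010740-37023398 in GRCm38.p6) encodes a glycoprotein of the outermost myelin surface that appears late in myelination. Its values were 10.78, 11.08, 10.87, 10.88 and 10.86 in Tg(Dyrk1a) and 10.77, 10.76, 10.96, 10.78 and 10.87 in wild-type mice. Tg(Dyrk1a) replicate 2 was the highest of all, and the other Tg(Dyrk1a) values lay within the wild-type range. The log2 fold change was 0.07 ± 0.06 (SE, limma adjusted p = 0.952), and it was 0.02 without Tg(Dyrk1a) replicate 2 and likewise 0.02 without the 3 arrays rich in choroid plexus markers.

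Mag (10562152, chr7:30899175-30914922) encodes a glycoprotein of the myelin layer that faces the axon. It was at 10.83, 10.93, 10.74, 10.86 and 10.84 in Tg(Dyrk1a) and at 10.76, 10.76, 10.95, 10.76 and 10.82 in wild-type mice. Wild-type replicate 3 was above every Tg(Dyrk1a) value and Tg(Dyrk1a) replicate 3 was below every wild-type value, and the log2 fold change was 0.03 ± 0.05 (SE, limma adjusted p = 0.973).

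Mobp (10590269, chr9:120149742-120181488) encodes a small basic protein of compact central myelin. Its Tg(Dyrk1a) values were 11.47, 11.74, 11.53, 11.57 and 11.56, and its wild-type values were 11.58, 11.51, 11.70, 11.47 and 11.57. Tg(Dyrk1a) replicate 2 was the highest, the other mice overlapped, and the log2 fold change was 0.01 ± 0.05 (SE, limma adjusted p = 0.992).

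Cnp (10381154, chr11:100574909-100591875) encodes a phosphodiesterase of the cytoplasmic channels of myelin, and it is switched on earlier in the lineage than Mog. It stood at 11.72, 12.01, 11.84, 11.81 and 11.87 in Tg(Dyrk1a) and at 11.81, 11.78, 11.94, 11.82 and 11.91 in wild-type mice. Tg(Dyrk1a) mice held both the highest and the lowest value, and the log2 fold change was -0.0033 ± 0.05 (SE, limma adjusted p = 0.998). The signs for Mbp, Mag, Mobp and Cnp turned with the normalization or with the arrays left out, so these 4 genes carry no direction. Without the 3 arrays rich in choroid plexus markers Mbp was at -0.0246, Mag at -0.0021, Mobp at -0.0439 and Cnp at -0.0287.

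Pllp was the myelin protein gene that stood apart. It encodes plasmolipin, a tetraspan protein of myelin and of other polarised membranes (10580765, chr8:94674895-94696242). Its values were 9.52, 9.73, 9.67, 9.63 and 9.65 in Tg(Dyrk1a) and 9.37, 9.40, 9.55, 9.47 and 9.53 in wild-type mice. All 5 Tg(Dyrk1a) mice were above the wild-type mean, and 4 of them were above every wild-type mouse, but Tg(Dyrk1a) replicate 1 lay below wild-type replicates 3 and 5. The log2 fold change was 0.18 ± 0.05 (SE), or 1.13-fold (95% interval 1.06 to 1.21), at a limma p of 0.00218 before and 0.947 after adjustment and a two-sided exact permutation p of 0.0238. It kept its sign in all 20 alternative settings tried, with log2 fold changes between 0.14 and 0.21 and no adjusted p under 0.506. The study's rank method, FCROS, ranks fold changes over pairs of arrays. A version written from its description was run here on the 23410 annotated transcript clusters, which is not the set of probes the study used. By it, Pllp was the 1 gene of the 9 that passed, with an f-value of 0.996, where 4.83% of all transcript clusters passed.

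Gsn (10471655, chr2:35256359-35307902) encodes gelsolin, which severs and caps actin filaments and is abundant in mature oligodendrocytes, though fibroblasts and other cells make it too. It was at 8.37, 8.62, 8.40, 8.35 and 8.43 in Tg(Dyrk1a) and at 8.30, 8.34, 8.30, 8.35 and 8.33 in wild-type mice. It was the 1 gene of the 9 whose groups did not overlap, which held for 0.807% of all transcript clusters, but the lowest Tg(Dyrk1a) value (8.3504) and the highest wild-type value (8.3500) were almost equal. The log2 fold change was 0.11 ± 0.05 (SE), or 1.08-fold (95% interval 1.01 to 1.16), with a limma p of 0.0301 before and 0.947 after adjustment. In the exact permutation test p was 0.00794, which is the lower limit for 5 against 5 arrays. Tg(Dyrk1a) replicate 2 lay far above the rest, and without it the log2 fold change was 0.07. The limma p before adjustment no longer lay under 0.05 without that array, without wild-type replicate 1 or without wild-type replicate 3.

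Values of other cell types that make gelsolin stand beside this. Of 12 markers of the meninges and of fibroblasts 11 had the higher mean in Tg(Dyrk1a), with 0 past the adjusted threshold and 4 on the higher side at an unadjusted limma p under 0.05, where 2.99% of all transcript clusters were. Their mean deviation from the mean of all arrays was between -0.10 and 0.25 in Tg(Dyrk1a) and between -0.21 and 0.04 in wild-type mice, and Tg(Dyrk1a) replicate 2 was the highest here as well. Of 10 smooth muscle and pericyte markers 9 had the higher mean, with 0 past the adjusted threshold, 5 on the higher side at an unadjusted p under 0.05 and mean deviations of 0.01 to 0.16 in Tg(Dyrk1a) and -0.21 to 0.02 in wild-type mice. With the choroid plexus, meninges and thalamus marker scores as covariates the log2 fold change of Gsn was 0.02 ± 0.06 (SE) and that of Pllp 0.14 ± 0.06 (SE). Smooth muscle and pericyte markers were not among these covariates. The part of any of these cell types in either difference was not tested beyond this fit.

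Neither Olig1 nor Olig2 passed the threshold. Olig2 had the lower mean in Tg(Dyrk1a), and Olig1 carried no direction. Both lie on chromosome 16, as does Dyrk1a (chr16:94569947-94695519). Olig1 (10436828, chr16:91269769-91271939) is needed for oligodendrocyte maturation and repair of myelin. Its values were 9.91, 10.13, 9.88, 9.94 and 9.99 in Tg(Dyrk1a) and 9.88, 9.92, 10.02, 9.84 and 9.99 in wild-type mice. The groups overlapped, with Tg(Dyrk1a) replicate 2 highest, and the log2 fold change of 0.04 ± 0.05 (SE, limma adjusted p = 0.969) was -0.00093 without that array.

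Olig2 (10436823, chr16:91225550-91228677) sets the oligodendrocyte lineage and acts in precursors as well as in myelinating cells. It stood at 8.92, 8.84, 8.77, 8.62 and 8.92 in Tg(Dyrk1a) and at 8.94, 8.97, 8.95, 8.83 and 8.96 in wild-type mice. No Tg(Dyrk1a) mouse reached the wild-type mean, and Tg(Dyrk1a) replicates 3 and 4 were below every wild-type mouse, while the other 3 lay inside the wild-type range because wild-type replicate 4 was low. The log2 fold change was -0.12 ± 0.06 (SE), or 0.922-fold (95% interval 0.849 to 1.00), with a limma p of 0.0544 before and 0.947 after adjustment and an exact permutation p of 0.0635. With quantile normalization the unadjusted limma p was 0.0360. The difference rested in part on Tg(Dyrk1a) replicate 4, the lowest mouse. Without that array it was -0.07, and without the 3 arrays rich in choroid plexus markers, of which it is 1, it was -0.05. Olig1 was at 0.01 without those 3.

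**Figure D2:**
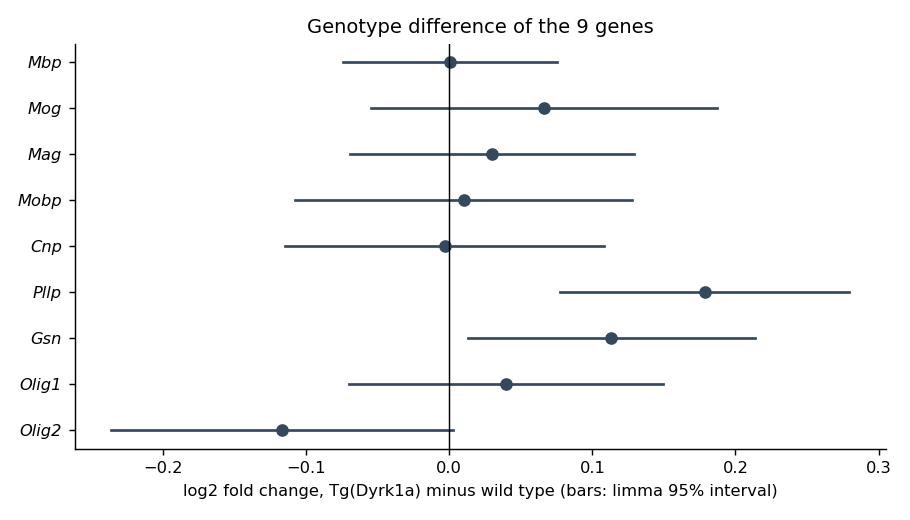
Genotype difference of the 9 genes as log2 fold change (horizontal axis, above 0 where Tg(Dyrk1a) was higher, n = 5 mice each). Each point is the limma estimate and its line the unadjusted 95% interval. The intervals of Pllp and Gsn lie above 0, that of Olig2 reaches just past 0 from below, and those of Mbp, Mog, Mag, Mobp, Cnp and Olig1 span 0.

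To set the myelin proteins against the transcription factors, each gene was centred on its mean of the 10 arrays and averaged within a mouse. The 6 myelin protein genes together were at 0.02 ± 0.08 in Tg(Dyrk1a) and -0.02 ± 0.07 (SD, n = 5 each) in wild-type mice. Olig1 and Olig2 together were at -0.02 ± 0.09 and 0.02 ± 0.06 (SD). The myelin mean less the Olig mean was 0.04 ± 0.09 (SD) in Tg(Dyrk1a) and -0.04 ± 0.05 (SD) in wild-type mice, a gap of 0.09 between genotypes with overlapping mice, from -0.07 to 0.15 in Tg(Dyrk1a) and from -0.12 to 0.01 in wild type. The gap was of the size of the spread between mice. On the myelin side Pllp had the largest difference, and on the Olig side Olig2. Without Pllp the other 5 myelin protein genes differed by 0.02 between genotypes. The gap fell to 0.035 without the 3 arrays rich in choroid plexus markers and to 0.038 with the tissue scores as covariates. The genotype difference of the 6 myelin protein genes, 0.05, was 0.015 without those 3 arrays and 0.016 without Tg(Dyrk1a) replicate 2 alone, and that of Olig1 and Olig2, -0.04, was -0.02 without the 3 arrays and -0.0032 with the covariates.

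Both of those contrasts were also taken within a mouse, chosen after the values were seen and so given without a test. Pllp less the mean of the other 5 myelin protein genes was between 0.04 and 0.14 in Tg(Dyrk1a) and between -0.15 and -0.02 in wild-type mice, so that the groups did not overlap on this scale. Olig2 less Olig1 was between -0.24 and 0.09 in Tg(Dyrk1a) and between 0.0058 and 0.14 in wild-type mice, and here the groups overlapped. The share of all genes that would separate after a like subtraction was not determined. The separation of Pllp on this scale is therefore a description only.

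**Figure D3:**
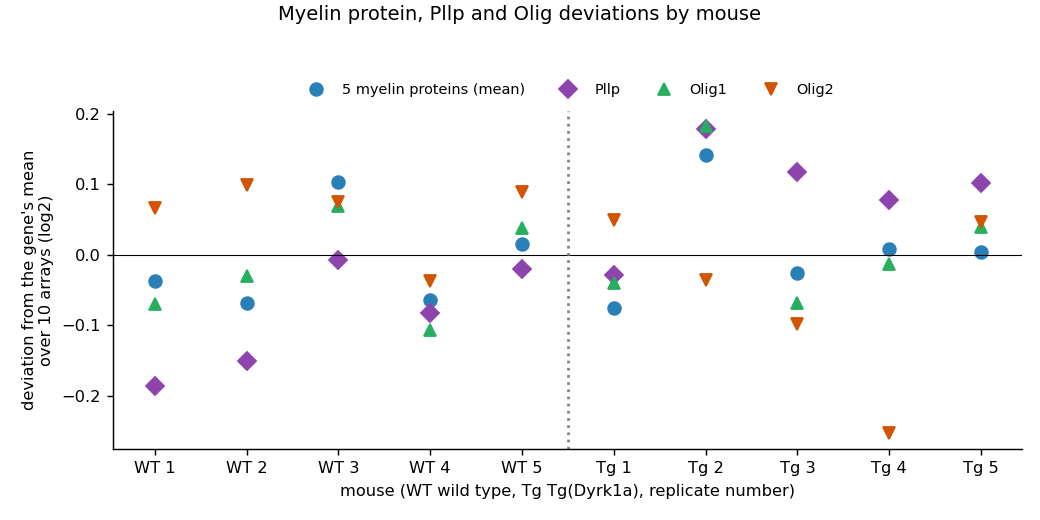
Deviation from the gene's mean over all 10 arrays (log2, vertical axis) of the mean of 5 myelin protein genes without Pllp (circles), of Pllp (diamonds), of Olig1 (upward triangles) and of Olig2 (downward triangles) in each wild-type (WT) and Tg(Dyrk1a) (Tg) mouse. Pllp is above the mean of the 5 other myelin protein genes in all 5 Tg(Dyrk1a) mice and below it in all 5 wild-type mice. Single myelin genes do not all follow that order. Olig1 stays near the myelin mean, and Olig2 parts from it most in Tg(Dyrk1a) replicate 4.

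For the mean of the 6 myelin protein genes, the SD between mice of 1 genotype (0.08 and 0.07) exceeded the difference between genotypes (0.05). Tg(Dyrk1a) replicate 2 and wild-type replicate 3 had the highest value of their group in 6 of 6 myelin protein genes, and Tg(Dyrk1a) replicate 1 the lowest in 5 of 6. After the mean of each genotype was subtracted, the 15 pairs of myelin protein genes correlated at r = 0.56 to 0.96 over the 10 arrays, with a median of 0.86. Mog with Cnp was the closest pair at 0.96, and Mag with Pllp the loosest at 0.56. These correlations describe arrays that share normalization and dissection, and no p is attached to them.

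Across mice, Olig1 moved with the myelin genes, and no such relation was seen for Olig2. Olig1 correlated with the 6 myelin protein genes at r = 0.67 (Pllp) to 0.88 (Mog), with a median of 0.84 and Spearman's rho of 0.61 to 0.84. Over the 12 Olig and myelin pairs, 4 of the 6 for Olig1 passed an exact permutation test within genotype after Benjamini-Hochberg adjustment for Pearson's r, each with an adjusted p of 0.0260, and 0 passed for Spearman's rho, where the adjusted p was 0.0725 to 0.169. In wild-type mice alone r was 0.70 to 0.86, and in Tg(Dyrk1a) mice alone 0.65 to 0.93. Without the 2 arrays on which Olig1 was farthest from its median, Tg(Dyrk1a) replicate 2 and wild-type replicate 3, r fell to 0.35 to 0.66, so much of the relation rested on those mice. Without the 3 arrays rich in choroid plexus markers it was 0.46 to 0.88.

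Olig2 correlated with the same 6 genes at r = -0.21 (Mbp) to 0.11 (Mag), with a median of -0.0043, rho of -0.35 to 0.14, and an exact permutation p of 0.938 after adjustment for each pair by Pearson's r and of 0.617 to 0.816 by Spearman's rho. It was -0.47 to 0.03 within Tg(Dyrk1a) and -0.03 to 0.47 within wild-type mice, and -0.26 to 0.13 without Tg(Dyrk1a) replicates 3 and 4, where Olig2 was farthest from its median. Olig1 and Olig2 correlated at r = 0.30 with each other. Whether the r of Olig1 differed from that of Olig2 was not tested. Gsn lay between them, at r = 0.28 (Mag) to 0.68 (Cnp) with the myelin protein genes.

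**Figure D4:**
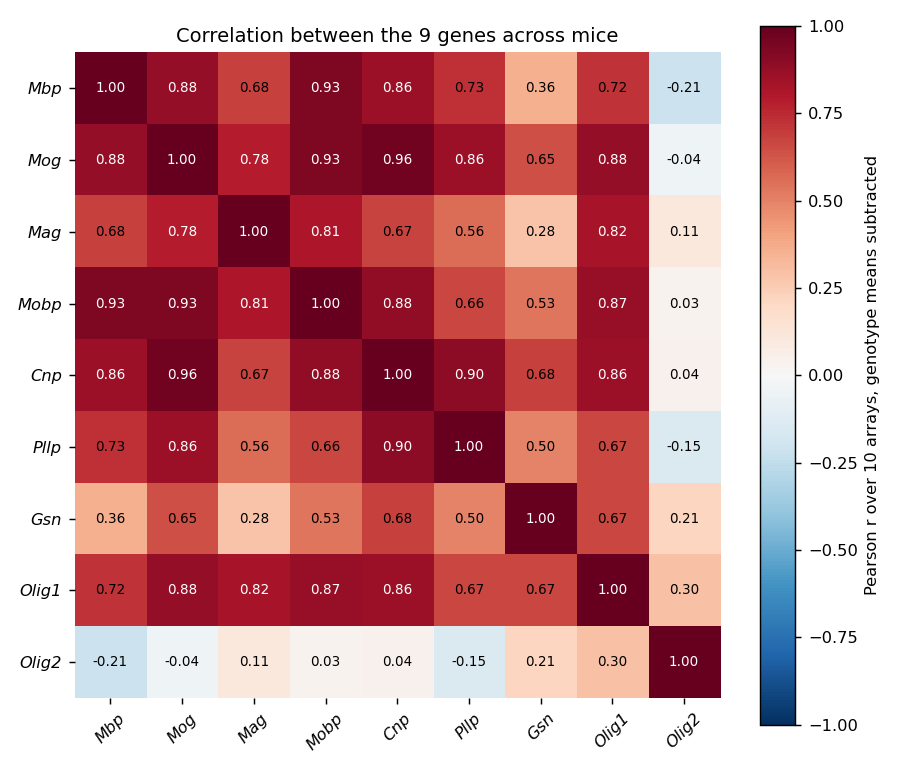
Pearson's r (colour, and the number in each cell) between each pair of the 9 genes over 10 arrays, after each gene's genotype mean was subtracted. The 6 myelin protein genes and Olig1 form a block of high values, from 0.56 to 0.96, whereas the row of Olig2 holds values between -0.21 and 0.30.

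The DNA just before the start of these genes is shown for 4 myelin protein genes and for Olig2, since the former rose and fell together from mouse to mouse and the latter did not follow them. SOX10, a transcription factor that switches on myelin genes, binds short DNA words such as ACAAAG or ACAATG, which read CTTTGT or CATTGT on the opposite strand. Bases of such words are in capitals and all others in lower case. The sequences are those of RefSeq for GRCm38.p6, written 5′ to 3′ on the strand of the gene, with 250 bases before the start, or 220 for Cnp.
Mog (minus strand, chr17:37023399-37023648): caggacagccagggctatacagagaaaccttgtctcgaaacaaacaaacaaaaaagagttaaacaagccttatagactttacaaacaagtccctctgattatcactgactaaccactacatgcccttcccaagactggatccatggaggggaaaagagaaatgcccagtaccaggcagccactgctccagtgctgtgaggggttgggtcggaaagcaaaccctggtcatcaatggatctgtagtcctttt
Cnp (plus strand, chr11:100574689-100574908): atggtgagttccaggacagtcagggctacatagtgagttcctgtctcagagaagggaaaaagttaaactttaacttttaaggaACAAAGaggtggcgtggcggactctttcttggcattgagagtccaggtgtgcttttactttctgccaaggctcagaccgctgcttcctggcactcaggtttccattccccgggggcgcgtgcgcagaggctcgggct
Mobp (plus strand, chr9:120149492-120149741): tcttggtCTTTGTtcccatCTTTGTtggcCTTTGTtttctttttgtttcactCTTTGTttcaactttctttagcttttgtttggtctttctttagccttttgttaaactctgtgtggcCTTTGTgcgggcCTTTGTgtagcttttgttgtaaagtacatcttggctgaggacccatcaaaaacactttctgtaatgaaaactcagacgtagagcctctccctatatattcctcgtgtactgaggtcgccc
Pllp (minus strand, chr8:94696243-94696492): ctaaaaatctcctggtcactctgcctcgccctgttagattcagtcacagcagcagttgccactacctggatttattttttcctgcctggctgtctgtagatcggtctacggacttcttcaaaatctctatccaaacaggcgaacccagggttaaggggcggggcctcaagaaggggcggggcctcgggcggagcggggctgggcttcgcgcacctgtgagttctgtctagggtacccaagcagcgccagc
Olig2 (plus strand, chr16:91225300-91225549): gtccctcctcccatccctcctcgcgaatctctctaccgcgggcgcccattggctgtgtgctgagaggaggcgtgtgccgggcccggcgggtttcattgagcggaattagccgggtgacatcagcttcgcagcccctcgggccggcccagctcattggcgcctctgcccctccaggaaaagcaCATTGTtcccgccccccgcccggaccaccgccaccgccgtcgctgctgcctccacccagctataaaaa
RefSeq windows were found for 7 of the 9 genes, without Mbp and Olig1. The word stood 6 times in Mobp, all as CTTTGT, and 1 time each in Cnp and Olig2, and it was not in the windows of Mog and Pllp. Of the windows not printed, it stood 1 time in 2 of the 3 for Mag and in 0 of the 3 for Gsn. Of 32851 windows of 250 bases before mouse genes 25.2% held it at least 1 time, and 1 window, that of Mobp, held it 6 times. CANNTG, the general word read by basic helix-loop-helix factors such as the OLIG proteins, stood 2 times in Pllp, 1 time in Cnp and not in Mog, Mobp or Olig2, and 0 to 2 times in the windows of Mag and 1 to 2 times in those of Gsn, against 66.2% of all windows with at least 1. Mog and Cnp, the closest pair across mice, thus differed in both words. A match describes the letters only and not binding.

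Other genes of the lineage came from lists of textbook genes. Of 23 genes listed as other myelin structural and membrane proteins, a broad list, 18 had the higher mean in Tg(Dyrk1a) and 5 the lower. Of these, 0 had a limma p under 0.05 in either direction, and the median log2 fold change was 0.03. Those with the smallest p were Ppp1r14a, an inhibitor of myosin phosphatase, at 0.08 ± 0.04 (SE), Apod, a lipid carrier of glia, at 0.11 ± 0.07 (SE), and Gjb1, a gap junction connexin, at 0.06 ± 0.05 (SE). Plekhb1, a membrane-binding protein, was at -0.0029 ± 0.04 (SE).

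Of 10 genes listed as myelin lipid enzymes, not all of which make lipids, 8 had the higher and 2 the lower mean. Again 0 had a limma p under 0.05, and the median was 0.04. Gamt, which makes creatine, was at 0.12 ± 0.06 (SE), Aspa, which frees acetate for lipid synthesis, at 0.10 ± 0.07 (SE), and Gal3st1, which makes sulfatide, at 0.04 ± 0.04 (SE). Cers2, the ceramide synthase for very long chains, was at 0.03 and Ugt8a, which makes galactosylceramide, at -0.03.

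Of 10 other transcription factors of the lineage, 3 had the higher and 7 the lower mean, with 0 at a limma p under 0.05 and a median of -0.02. Sox10, which switches on myelin genes, was at -0.07 ± 0.04 (SE), and, as for Olig2, each of the 5 Tg(Dyrk1a) mice lay below the mean of the wild type. Tcf7l2, a Wnt pathway factor of differentiating oligodendrocytes that thalamic neurons also make, was at -0.24 ± 0.13 (SE). Wild-type replicate 5 held the highest Tcf7l2 value, 8.71. Its mean of 10 thalamus and habenula markers was 0.40 above the mean of all arrays, while the other 9 arrays lay between -0.11 and 0.06. Tcf7l2 is itself among those 10 markers, so this mean is not independent of it. The part of thalamic tissue in the Tcf7l2 difference was not tested. Zfp536, a zinc finger repressor, was at 0.09 ± 0.05 (SE), Zeb2, which relieves inhibition of differentiation, at 0.04, and Sox8, a relative of Sox10, at -0.02.

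Of 13 genes of oligodendrocyte precursors, 5 had the higher and 8 the lower mean, with a median of -0.02. A limma p under 0.05 was found for 1 gene of the 13, and for 4.93% of all transcript clusters. That gene was Vcan, a matrix proteoglycan, at 0.11 ± 0.05 (SE) with a limma p of 0.0418 before and 0.947 after adjustment. C1ql1, a secreted C1q-like protein, was at 0.07 ± 0.03 (SE) and Matn4, a matrilin, at -0.07 ± 0.04 (SE). Pdgfra, the growth factor receptor that defines these precursors, was at 0.02 ± 0.04 (SE). No gene of these 4 lists passed the limma threshold after adjustment, and the smallest adjusted p in any of them was 0.947.

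The same lists were set against the mouse-to-mouse pattern of Olig1, of Olig2 and of the 6 myelin protein genes. With the myelin mean, the median r was 0.74 for the other myelin proteins, 0.65 for the lipid enzymes, 0.44 for the transcription factors and -0.19 for the precursor genes, against -0.14 over all 19929 other genes. With Olig1 the medians were 0.62, 0.60, 0.47 and -0.11, and with Olig2 they were 0.03, -0.26, -0.02 and 0.08. An r over 0.5 with Olig1 was found for 15 of the 23 other myelin proteins and 7 of the 10 lipid enzymes, where 8.76% of all genes reached it. With Olig2 it was found for 0 genes of the 4 lists, where 9.50% of all genes reached it. Such likeness was not limited to oligodendrocyte genes. Of 11 choroid plexus markers 8 had an r over 0.5 with Olig1, with a median of 0.57, and their median r with the myelin mean was 0.55. Their part in either relation was not tested beyond the values without the 3 arrays above.

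**Figure D5:**
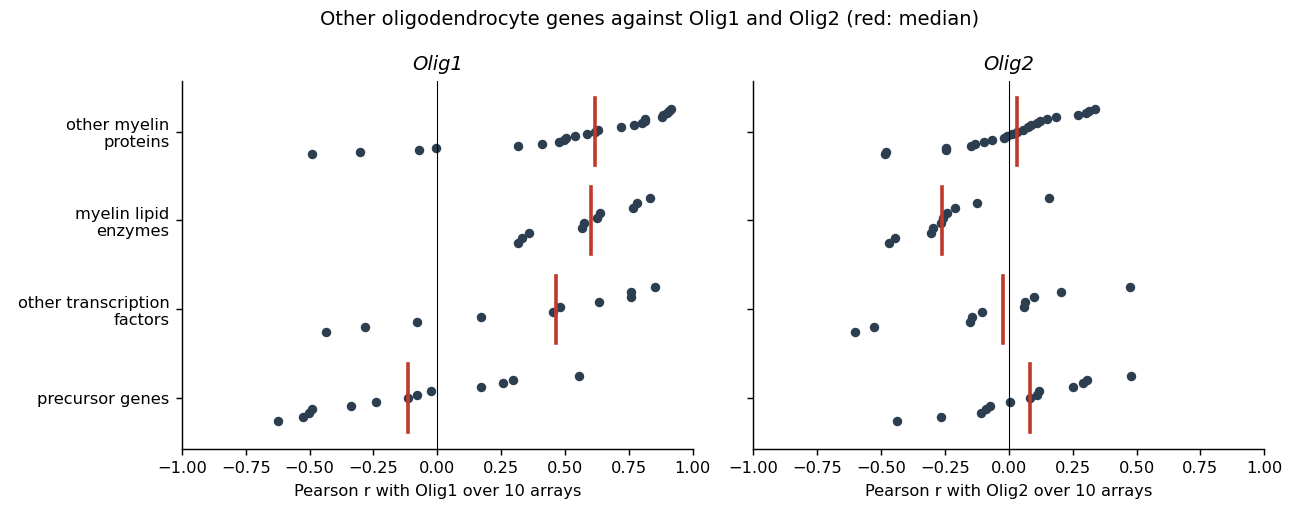
Pearson's r over 10 arrays, genotype means subtracted, of each gene of 4 oligodendrocyte lists with Olig1 (left) and with Olig2 (right). Each point is 1 gene and each red line the median of its list. The medians of the other myelin proteins and lipid enzymes are at 0.62 and 0.60 with Olig1 and at 0.03 and -0.26 with Olig2.

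Among 19929 other genes, the 10 whose pattern over the 10 arrays was most like the myelin mean were Apod and Cers2 (r = 0.97 each), Mal, Bcas1 and Tmem88b (0.96 each), Cldn11 (0.95), Cyp2j12 and Mbip (0.93 each), Mir350 (0.92) and Unc5b (0.91). Of these, 5 were in the lists above, namely Apod, Cers2, Mal, Bcas1 and Cldn11. None of the 10 had a limma p under 0.05 between genotypes. The 5 most like the mean of Olig1 and Olig2 were Vmn1r210 (0.95), Vmn2r111 (0.93), Snord82 (0.93), Slc25a17 (0.92) and Gng10 (0.91), and 0 of them were in a list. Of these 5, only Slc25a17 had a limma p under 0.05 (0.0414 before and 0.947 after adjustment), as did 4.93% of all transcript clusters. Vmn1r210 (mean level 4.07), Vmn2r111 (4.76) and Mir350 (4.72) were dim, below every array median (6.57 to 6.66). The mean of Olig1 and Olig2 joins a pair of genes that correlated at only 0.30, so its nearest genes describe neither one alone.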

How the data were processed

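Hippocampal RNA of 5 Tg(Dyrk1a) and 5 wild-type mice was hybridised to GeneChip Mouse Gene 1.0 ST arrays. The authors deposited log2 values after RMA, which corrects background, normalizes the arrays and summarises probes per transcript cluster; the submitters' processing notes also name limma and mm10. The set of arrays normalized together is not given in the sources used here. RMA compresses differences of dim transcripts. The table held 35556 rows, of which 23410 had a gene symbol and 12146 had none. A gene with several transcript clusters is represented by the one with the highest mean. Positions and upstream sequences are from RefSeq (GRCm38.p6).

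The genotype contrast was fitted in R 4.3.3 by lmFit and eBayes of limma 3.58.1 without covariates, with Benjamini-Hochberg adjustment over the 23410 transcript clusters, and with two-sided exact permutation tests over 252 arrangements. Replicate numbers did not pair the mice (correlations of their deviations between -0.29 and 0.28), so no block was used. The number of arrays limits the precision. The 9 genes and 15 gene lists, of which 141 of 148 entries were analysed, were chosen with earlier results of these data known. Named genes were the 9, Dyrk1a, in each oligodendrocyte list the 3 smallest p and the 2 highest means, and the genes most alike in pattern. Alternatives were other normalization, filters, variance models, array weights, a replicate block, tissue covariates, all transcript clusters of a gene, FCROS, and leaving out arrays. The limma fit and FCROS were checked on simulated data with independent noise and with changes larger than any among the 9 genes. The permutation test of means was checked on a made-up case of full separation, and that of correlations was not checked. Figures were drawn with matplotlib 3.10.9.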

Additional observations from a re-analysis of the deposited data

Results flagged for a closer look

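Olig2 in wild-type replicate 4, at 8.83, lay apart from the other 4 wild-type mice, which were between 8.94 and 8.97. Its gap to the nearest of them was 0.76 of the range of the group, above Dixon's critical value of 0.71 for 5 samples. Of 24 groups checked this was the 1 that met the criterion, and chance alone marks about 1 in 20.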

How the results depend on the processing

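Of the 9 genes, 0 passed the limma threshold under any limma alternative and 1 (Pllp) passed by FCROS. Of the 9, 2 had an unadjusted p under 0.05, but 3 did with quantile normalization and with the replicate block, where Olig2 joined Pllp and Gsn, 0 did with tissue scores as covariates, and between 1 and 3 did when single replicates were left out. The number of all transcript clusters that passed, 2, was 1 with median centring, with all rows tested, with a variance trend and robust estimation, with the replicate block and without the choroid plexus rich arrays, 5 with array weights, 0 with tissue scores as covariates, and 1 to 2 when single replicates were left out. With the replicate block the log2 fold change of Pllp was 0.18 at an adjusted p of 0.946, and that of Olig2 was -0.12 at an unadjusted p of 0.0182 and an adjusted p of 0.946. The block changed no call at the adjusted threshold among the 9 genes.

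Signs turned for genes near 0. Mobp was at -0.0022 with quantile normalization and at -0.0439 without the choroid plexus rich arrays, where Mbp was at -0.0246 and Mag at -0.0021. Cnp was at 0.0120 with median centring and 0.0110 with array weights, and Mbp at -0.0067 with tissue covariates. When single replicates were left out, Mbp ranged from -0.0144 to 0.0192, Mobp from -0.0315 to 0.0446, Cnp from -0.0429 to 0.0280 and Olig1 from -0.00093 to 0.0619. The cause was not tested. The myelin mean (0.02 to 0.07), the Olig mean (-0.06 to -0.0032) and their difference (0.04, without the choroid plexus rich arrays, to 0.11) kept their signs in all alternatives. The median r of Olig1 with the myelin genes was 0.69 to 0.87 and that of Olig2 -0.13 to 0.18 under 14 alternatives chosen after seeing the data.

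With 10 arrays, even the narrowest 95% interval of the 9 genes, that of Mbp, spanned -0.07 to 0.08. This interval is not adjusted for the number of transcript clusters tested, so it is not a limit of detection. Pllp, at a log2 fold change of 0.18, did not pass the adjusted limma threshold either (adjusted p = 0.947).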

Other observations

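Microglia markers, which belong to no oligodendrocyte list, had a higher median r with Olig2 than any of the 4 oligodendrocyte lists. The same held for markers of hippocampal neurons (0.21), astrocytes (0.20) and thalamus and habenula (0.09). It did not hold for those of Schwann cells (0.03), meninges and fibroblasts (-0.16), smooth muscle and pericytes (-0.25) or choroid plexus (-0.32). The median r of 9 microglia markers with Olig2 was 0.46, where the median over all genes was 0.04. Of the 9, 4 had an r over 0.5, as did 9.50% of all genes. With Olig1 their median r was 0.38, and 1 of them had an r over 0.5, as did 8.76% of all genes. With the 6 myelin protein genes the median r of the same markers was 0.05. Between genotypes 6 of the 9 had the higher and 3 the lower mean in Tg(Dyrk1a), with 0 at a limma p under 0.05 and a median log2 fold change of 0.01. Of 4 Schwann cell markers, which stand for myelin of peripheral nerve, 1 had the higher and 3 the lower mean, and their median r with the myelin protein genes was -0.53.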
